A study of Mus musculus with 6 samples.

Results

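The DNAJ co-chaperone genes were followed in whole testes of 3 KOStra8 and 3 HETStra8 mice, all 7 weeks old. The family was taken as every protein-coding gene of GENCODE mouse release M21 whose symbol is Dnaja, Dnajb or Dnajc with a number, which gave 45 of the 55536 genes counted, on 17 chromosomes. They were split into 5 members that reside in the endoplasmic reticulum (ER), 6 that are known as testis-restricted, and 34 others. KOStra8 mice are Sel1L flox/Δ and express Stra8-Cre, in which the promoter of the germ cell gene Stra8 drives the recombinase. The HETStra8 controls are described in the deposited record as floxed/deleted littermates, with no Cre named. The study pools such mice under this name with floxed/wild-type mice that carry Stra8-Cre, and the genotype of each control mouse is not given in the sources used here. The study describes SEL1L as lost from spermatocytes and spermatids of KOStra8 testes and retained in spermatogonia and Sertoli cells, so that the RNA of each testis comes from cells with and without the protein. SEL1L is the adaptor of the ubiquitin ligase HRD1 in ER-associated degradation (ERAD), and the comparison asks whether its loss changes transcript levels of the testis.

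DNAJ proteins, also called J proteins or HSP40s, carry a J domain that binds HSP70 chaperones and stimulates their ATPase, which locks the HSP70 onto an unfolded client. A histidine, a proline and an aspartate in a row, the HPD motif, are needed for this. In the ER lumen the HSP70 is BiP, and its J proteins feed clients into folding or into ERAD. Several of them are induced by the unfolded protein response. The testis has J proteins of its own, made mostly in the haploid germ cells.

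The codons of the HPD motif show what most of these genes share beyond their names. They were read from the longest complete coding sequence of each gene in GENCODE M21 (GRCm38), and 44 of the 45 members hold an in-frame HPD. The stretches of the ER-resident members are shown 5′ to 3′ with the HPD codons in capitals, since the third bases vary while the encoded motif is the same.
Dnajb9: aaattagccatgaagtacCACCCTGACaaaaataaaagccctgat
Dnajb11: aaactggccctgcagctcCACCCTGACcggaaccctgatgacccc
Dnajc1: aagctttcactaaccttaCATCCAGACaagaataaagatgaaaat
Dnajc3: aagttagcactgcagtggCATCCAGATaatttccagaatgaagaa
Dnajc10: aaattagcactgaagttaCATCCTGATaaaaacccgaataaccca
The motif lies at codons 54 to 56 of Dnajb9, 53 to 55 of Dnajb11, 89 to 91 of Dnajc1 and 63 to 65 of Dnajc10. In Dnajc3, whose J domain lies near the carboxyl end of the protein, it is at codons 422 to 424.

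Of the testis-restricted members, 5 have the motif and Dnajb13 does not. Its stretch that aligns with the HPD of Dnajb1 is shown beside that of Dnajb1 and those of the other testis-restricted members, with the codons at the place of the motif in capitals.
Dnajb1: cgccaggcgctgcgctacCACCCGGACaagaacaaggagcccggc
Dnajb13: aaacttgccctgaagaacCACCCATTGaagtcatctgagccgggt
Dnajb3: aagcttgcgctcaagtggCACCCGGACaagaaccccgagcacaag
Dnajb7: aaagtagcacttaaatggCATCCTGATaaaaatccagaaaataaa
Dnajb8: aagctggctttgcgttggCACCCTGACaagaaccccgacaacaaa
Dnajc5b: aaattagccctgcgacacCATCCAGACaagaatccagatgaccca
Dnajc5g: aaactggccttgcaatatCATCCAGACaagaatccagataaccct
The stretch of Dnajb13 differs from that of Dnajb1 at 22 of 45 bases, and codons 32 to 34 keep the first pair of codons of the motif but not the aspartate. In Dnajb3, Dnajb7 and Dnajb8 the motif falls at codons 31 to 33.

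The libraries held between 28875108 and 36526695 counts on genes. Counts of Sel1l, which the knockout targets, were 1549, 1603 and 1413 in the HETStra8 mice against 846, 636 and 741 in the KOStra8 mice. Sel1l fell by 1.07 on the log2 scale (SE 0.104), with edgeR's adjusted p at 0.00061. Levels are given as CPM, counts scaled to library size with TMM factors, and a fold change is always KOStra8 against HETStra8. In whole testis, fewer cells of a type and less RNA per cell cannot be told apart. Summed markers of spermatocytes lay at 1025 to 1229 CPM in HETStra8 and 1303 to 1321 CPM in KOStra8 mice, with 1 of 7 markers higher at an unadjusted p below 0.05, beside 7.13% of all genes. Those of Sertoli cells lay at 542 to 578 CPM and 467 to 501 CPM, with 3 of 7 lower, beside 5.12% of all genes. Markers of round spermatids summed to 1688 to 1770 CPM and 1600 to 1704 CPM, and those of elongating spermatids to 13480 to 13540 CPM and 12000 to 13730 CPM. The median log2 fold change of the spermatocyte markers was 0.44, and 0.098 after correction for GC content and transcript length. For Sertoli cells it was −0.14 and −0.13. Log2 fold changes above 0 were seen for 6 of 7 spermatocyte and 4 of 7 spermatogonial markers, beside 48.5% of all genes. This held for 2 of 7 round and 1 of 7 elongating spermatid markers. It held for 0 of 7 Sertoli, 0 of 6 Leydig, 0 of 4 peritubular myoid and 0 of 5 macrophage markers. No tested marker of the 11 cell types and tissues examined passed an adjusted p of 0.01 in edgeR with all 6 mice. Counts sufficed to test 1 of 5 epididymis, 4 of 5 blood and 2 of 4 skeletal muscle markers. Crisp1, an epididymis marker that was not tested, was at 7.00 CPM in HETStra8 mouse 1 and at most 0.327 CPM in the other mice. The part of these differences in the values of the DNAJ genes was not tested.

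The testis-restricted members stood at the top of the family by level. Compared per kb of merged exons, over all 6 mice, Dnajb3 was the highest at 557 CPM per kb, followed by Dnajb8 at 168 and Dnajc5b at 131 CPM per kb. Dnajb3 (also MSJ-1) is a J protein of spermatids, Dnajb8 a suppressor of protein aggregation, and Dnajc5b a cysteine string protein, a J protein anchored to vesicles by lipid. Dnajb13, Dnajc5g and Dnajb7 stood at ranks 5, 6 and 8 with 79.0, 78.6 and 70.8 CPM per kb, so that all 6 were among the 8 highest. The mice of these 3 genes and of Dnaja4, at rank 7, overlapped in level per kb, so their order is not resolved. When lengths were taken from the longest transcript of each gene instead, the 6 held ranks 1, 2, 3, 8, 9 and 12.

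The highest of the other members were Dnajb1 at 113 CPM per kb, the stress-inducible cytosolic HSP40, Dnaja4 at 75.6, Dnajb6 at 68.4, Dnaja2 at 61.0 and Dnajc2 at 59.2 CPM per kb. This order depends on the length used, since per kb of the longest transcript Dnajb6 stood at 142, above Dnajb1 at 121, and Dnajc7 at 103, above Dnaja4 at 90.4. ER-resident members stood lower, with Dnajb9 at 38.8 (rank 15), Dnajb11 at 27.3, Dnajc10 at 19.7, Dnajc3 at 16.0 and Dnajc1 at 1.93 CPM per kb (rank 42). The lowest of the family was Dnajc6, auxilin, the clathrin-uncoating J protein known from neurons, at 0.277 CPM per kb. Levels per kb therefore spanned more than 3 powers of 10 within the family. The testis-restricted members gave 54.1% ± 0.61 (SD, n = 3) of the family's summed CPM per kb in HETStra8 and 53.1% ± 1.07 (SD, n = 3) in KOStra8 testes. Of the summed CPM, not divided by length, they gave 26.0% ± 0.527 and 25.0% ± 0.814. The share thus depends on how length is handled, and it was not taken per kb of the longest transcript.

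**Figure D1:**
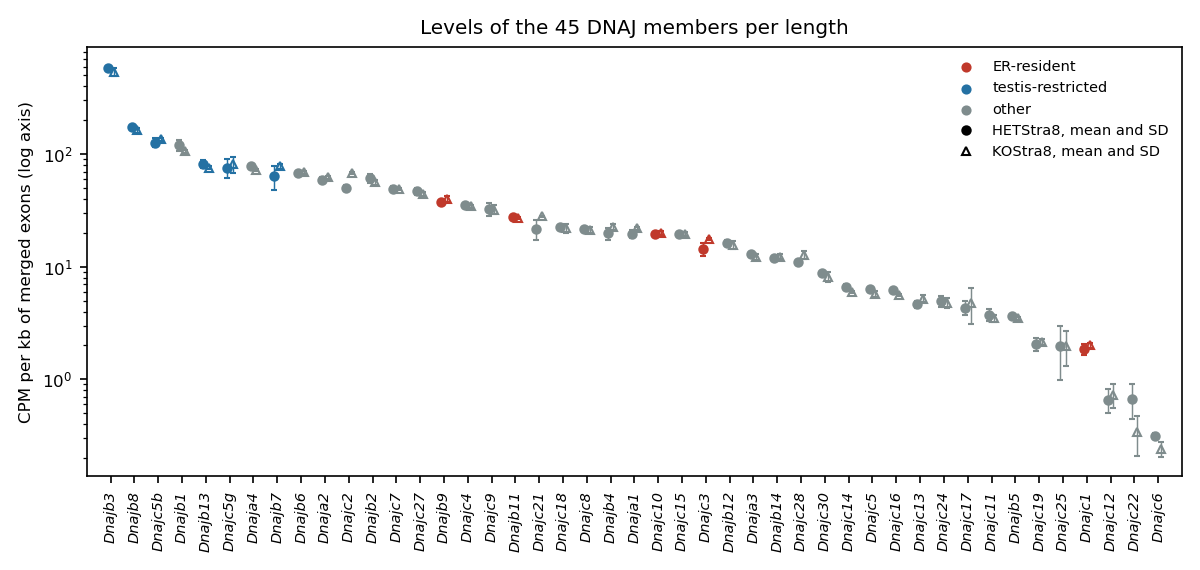
Level of each of the 45 DNAJ genes in CPM per kb of merged exons, on a log axis, in order of the mean over 6 mice; filled circles are HETStra8 and open triangles KOStra8 means, and bars are SD of 3 mice. The testis-restricted genes (blue) take ranks 1, 2, 3, 5, 6 and 8, and the ER-resident genes (red) lie between 38.8 and 1.93 CPM per kb.

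In edgeR, no DNAJ gene passed an adjusted p of 0.01. The study's cutoff joins this adjusted p to a fold of 2, and 0 members passed the 2 together in edgeR, and 0 in DESeq2. The study reports more genes past its cutoff than edgeR passed here, and it names no tool for that comparison. All 45 members were among the 21465 genes tested with edgeR's two-sided quasi-likelihood test, in which 4 genes, or 0.0186% of those tested, passed at any fold and 0.00932% at over 2-fold. The same count of members, 0, was found at an adjusted p of 0.05, which 0.0233% of all genes passed. At an unadjusted p below 0.05, 4 members were higher in KOStra8, Dnajc2, Dnajc21, Dnajc3 and Dnajc28, against a background of 7.13% of all genes, and 1 was lower, Dnajc22, against 5.12%. At the adjusted p of 0.01, DESeq2 called 1 member, Dnajc2, limma-voom called 0, and edgeR without a filter on low counts called 2, Dnajc2 and Dnajc21. The share of all genes that passed in these settings was not taken, so these counts stand without a background.

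The fold changes of the family lay close to 0. The log2 fold change was above 0 in 21 of 45 members, against 48.5% of all genes, with a median of −0.01 for the members and −0.0094 for all genes tested. The estimate lay within 1.5-fold for 44 members, with Dnajc22 as the exception. The 95% interval of the fold change stayed within 2-fold for 43 members and within 1.5-fold for 37. The members whose interval reached past 2-fold were Dnajc22 and Dnajc6, both under 2 CPM in every mouse. The summed CPM of the family were 5572 ± 55.7 (SD, n = 3) in HETStra8 and 5627 ± 132 (SD, n = 3) in KOStra8 testes.

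**Figure D2:**
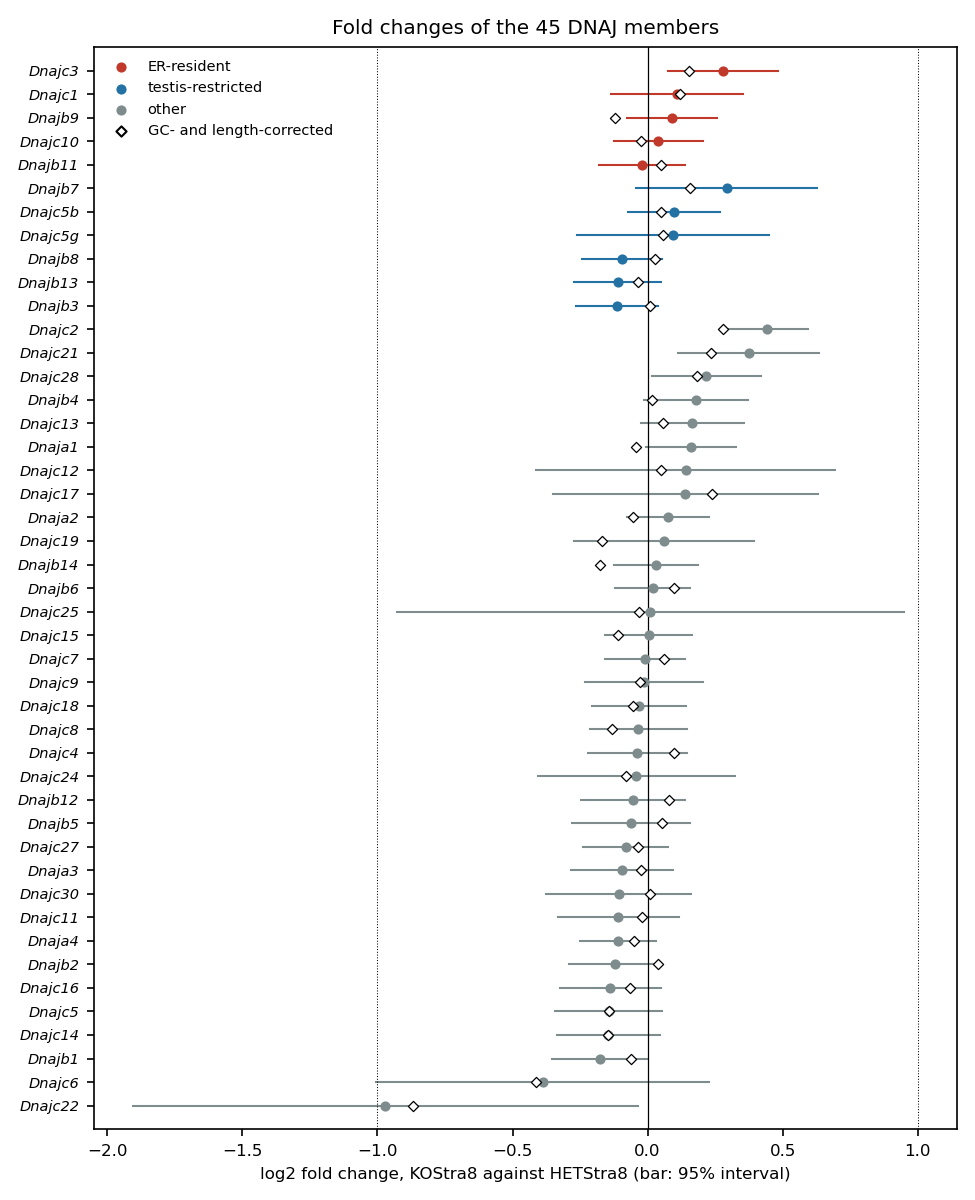
Log2 fold change of each DNAJ gene in KOStra8 against HETStra8 testes (filled circles) with its 95% interval, by subgroup; open diamonds are the estimates after correction for GC content and transcript length, and dotted lines mark 2-fold. Of the 45 estimates, 44 lie within 1.5-fold, and Dnajc22, a gene near 1 CPM, lies lowest at −0.97.

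In the ER-resident group, transcripts of the luminal BiP co-chaperones differed little between the groups, with Dnajc3 as the member with the largest difference. Dnajc3 (p58IPK; ENSMUSG00000022136, chromosome 14 from 118937976 to 118981697, GRCm38, plus strand) encodes a luminal J protein that binds unfolded clients for BiP. Its level was 70.3, 67.0 and 85.7 CPM in HETStra8 mice 1 to 3 and 89.2, 89.0 and 92.3 CPM in KOStra8 mice 1 to 3. Every KOStra8 mouse lay above every HETStra8 mouse, and HETStra8 mouse 3 lay close to the KOStra8 mice. The log2 fold change was 0.28 (SE 0.0948, 95% interval 0.08 to 0.48), with an unadjusted p of 0.0106 and an adjusted p of 0.281 in edgeR. After correction for GC content and transcript length it was 0.15, with an unadjusted p of 0.0765. Without HETStra8 mouse 3 it was 0.40, with an adjusted p of 0.00715 in edgeR, and with the correction as well 0.23, with an adjusted p of 0.175.

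Dnajb9 (ERdj4; ENSMUSG00000014905, chromosome 12 from 44205559 to 44210326, minus strand) is induced through the transcription factor XBP1 and hands clients to ERAD. It was measured at 93.8, 95.04 and 98.5 CPM in HETStra8 and at 94.7, 105 and 107 CPM in KOStra8 mice 1 to 3. The groups overlapped. The estimate was 0.09 on the log2 scale (95% interval −0.08 to 0.26, adjusted p = 0.673 in edgeR), and with the GC and length correction it turned to −0.12.

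Dnajb11 (ERdj3; ENSMUSG00000004460, chromosome 16 from 22857845 to 22879634, plus strand) is a soluble partner of BiP that binds clients directly. Its level was 88.8, 89.3 and 88.9 CPM in HETStra8 mice and 88.8, 89.3 and 85.4 CPM in KOStra8 mice. All mice but KOStra8 mouse 3 were within 1 CPM of each other, and the log2 fold change was −0.02 with a 95% interval of −0.18 to 0.14. It was 0.05 after the GC and length correction.

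Dnajc10 (ERdj5; ENSMUSG00000027006, chromosome 2 from 80315466 to 80354043, plus strand), a disulfide reductase that prepares substrates for ERAD, was at 97.9, 101 and 92.8 CPM in HETStra8 and at 94.8, 102 and 104 CPM in KOStra8 mice. The groups overlapped, with a log2 fold change of 0.04 (95% interval −0.13 to 0.21), which was −0.03 after the correction. Dnajc1 (ERdj1; ENSMUSG00000026740, chromosome 2 from 18195654 to 18392830, minus strand), a membrane J protein that binds ribosomes, was at 18.7, 22.4 and 23.8 CPM in HETStra8 and at 24.4, 22.2 and 23.4 CPM in KOStra8 mice. HETStra8 mouse 1 was the lowest and the groups overlapped, with a log2 fold change of 0.11 (95% interval −0.14 to 0.35). Of the exon bases of Dnajc1, 6.4% are shared with Mllt10 on the opposite strand.

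Over the 5 ER-resident members the median of the log2 fold changes was 0.09, with 4 of 5 above 0, and 0.05 after the correction, with 3 of 5 above 0. Together they made up 4.96% ± 0.083 (SD, n = 3) of the family's summed CPM per kb in HETStra8 and 5.31% ± 0.108 (SD, n = 3) in KOStra8 testes. The HETStra8 mice ranged from 4.86% to 5.02% and the KOStra8 mice from 5.19% to 5.41%, without overlap. The summed CPM per kb of these 5 genes did overlap, at 99.1 to 103.4 in HETStra8 and 103.0 to 108.8 in KOStra8 mice. Not divided by length, the sums were 369.6 to 389.6 and 391.9 to 411.2 CPM, without overlap. The share also depends on the sum of the whole family, which was lowest in KOStra8 mouse 1 at 1933 CPM per kb. This share was not taken after the GC and length correction and was not tested, and it includes Dnajc3.

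**Figure D3:**
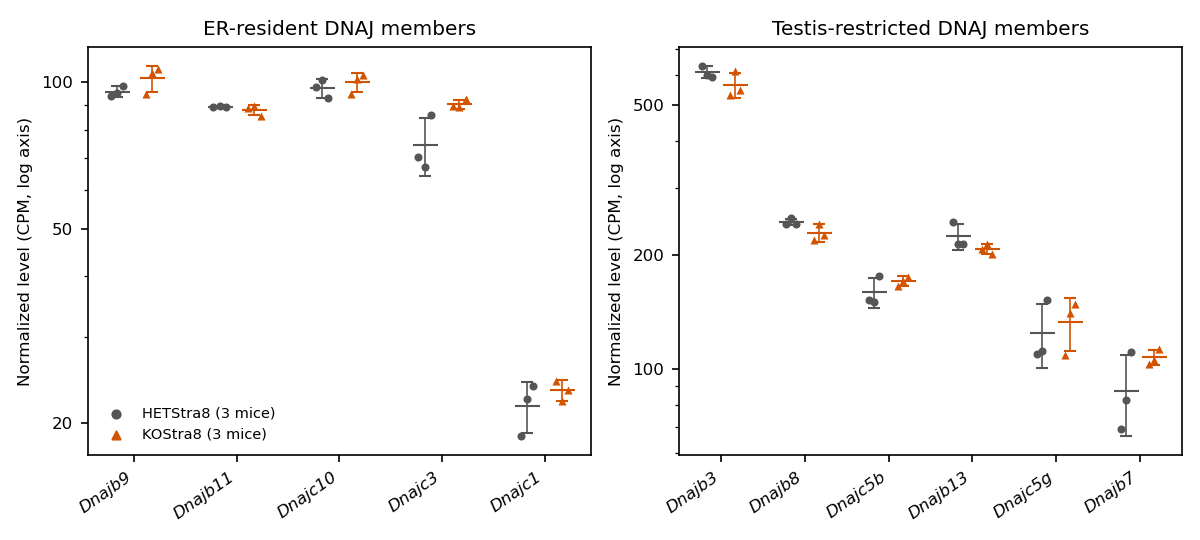
Normalized level in CPM, on a log axis, of the 5 ER-resident (left) and 6 testis-restricted (right) DNAJ genes; circles are single HETStra8 mice, triangles single KOStra8 mice, and bars the mean and SD of 3 mice. Among these 11 genes the groups are apart only for Dnajc3, at 67.0 to 85.7 CPM in HETStra8 and 89.0 to 92.3 CPM in KOStra8 mice.

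Promoters were searched because genes of the unfolded protein response carry known elements there. Of the 45 members, 37 had at least 1 promoter in the RefSeq table (GRCm38.p6), with 50 windows from 250 bases before to 50 bases after a start, among 32851 windows in all. Both strands were searched for ERSE, which is CCAAT and CCACG with 9 bases of any kind between them, for ERSE-II, which is ATTGG and CCACG with 1 base between them, for UPRE, which is TGACGTG, and for a heat shock element, HSE, which is GAA, TTC and GAA with 2 bases between neighbours. ERSE and ERSE-II share the letters CCACG. ERSE was found in 0.119% of all windows, and Dnajc3 was the member that held it, 105 to 87 bases before the start. ERSE-II was found in 0.0365% of all windows, and Dnajb11 was the member that held it, 7 to 17 bases after the start. These stretches are printed since both genes encode luminal BiP co-chaperones, with the fixed letters of the element in capitals.
Dnajc3, chr14:118937807-118937865, plus strand: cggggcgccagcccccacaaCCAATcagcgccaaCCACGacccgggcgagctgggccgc
Dnajb11, chr16:22857832-22857862, plus strand: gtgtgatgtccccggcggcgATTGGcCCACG
No match was recorded for Dnajb9, and whether it was among the 37 members with a window is not shown here. UPRE, present in 2.01% of all windows, was found in Dnajc25, and HSE, present in 0.603%, in Dnajb6. The 2 genes with an ERSE or ERSE-II match had log2 fold changes of 0.28 and −0.02.

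The testis-restricted members showed no difference past the test in either direction. Their median log2 fold change was 0.00015, with 3 of 6 above 0, and 0.04 with 5 of 6 above 0 after the GC and length correction. Dnajb3 (ENSMUSG00000081984, chromosome 1 from 88204732 to 88205782, minus strand) was at 634, 598 and 593 CPM in HETStra8 mice 1 to 3 and at 531, 613 and 545 CPM in KOStra8 mice 1 to 3. KOStra8 mouse 2 lay among the HETStra8 mice. Dnajb3 had a log2 fold change of −0.11 (95% interval −0.27 to 0.04, adjusted p = 0.538 in edgeR), and 0.0098 after the correction.

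Dnajb8 was at 242, 250 and 241 CPM in HETStra8 and 219, 242 and 226 CPM in KOStra8 mice, a log2 fold change of −0.09 (95% interval −0.24 to 0.05). The groups overlapped through KOStra8 mouse 2. Of the exon bases of Dnajb8, 37.2% are shared with the antisense gene 1700031F10Rik, which had 10.4 to 12.7 CPM, and the strand setting of the counting is not given in the sources used here. Dnajb13, a component of the radial spokes of the sperm tail, was at 244, 214 and 214 CPM in HETStra8 and 208, 214 and 201 CPM in KOStra8 mice. Its log2 fold change was −0.11 (95% interval −0.27 to 0.05), and 11.2% of its exon bases are shared with Ucp2 on the other strand.

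The cysteine string proteins of the testis, Dnajc5b and Dnajc5g, had log2 fold changes of 0.10 and 0.09. Dnajc5b was at 152, 150 and 176 CPM in HETStra8 and 165, 171 and 175 CPM in KOStra8 mice. Dnajc5g was at 110, 111 and 152 CPM in HETStra8 and 109, 141 and 149 CPM in KOStra8 mice. For both genes HETStra8 mouse 3 had the highest value of all 6 mice, and the groups overlapped. Without that mouse the log2 fold changes were 0.18 and 0.27 (edgeR's adjusted p = 0.162 and 0.231), and that of Dnajc5g was 0.0042 without KOStra8 mouse 3. Dnajb7 had the largest estimate of the 6, at 69.1, 82.5 and 111 CPM in HETStra8 and 103, 106 and 113 CPM in KOStra8 mice. HETStra8 mouse 3 again lay among the KOStra8 mice. Dnajb7 had a log2 fold change of 0.29 (95% interval −0.04 to 0.63, adjusted p = 0.456 in edgeR), and 0.16 after the correction. Without HETStra8 mouse 3 it was 0.51, with an adjusted p of 0.00296 in edgeR, and with the correction as well 0.30, with an adjusted p of 0.0638.

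Among the other members, the highest log2 fold change was that of Dnajc2 (ENSMUSG00000029014, chromosome 5 from 21757267 to 21785251, minus strand), a J protein of the ribosome that works on nascent chains and is also known as MPP11 or zuotin. Its level was 234, 262 and 262 CPM in HETStra8 mice 1 to 3 and 333, 350 and 346 CPM in KOStra8 mice 1 to 3. The groups were far apart, with the lowest KOStra8 mouse well above the highest HETStra8 mouse. The mean was 252 CPM with an SD of 15.98 over 3 HETStra8 mice and 343 CPM with an SD of 8.93 over 3 KOStra8 mice, a fold of 1.36. The log2 fold change was 0.44 (SE 0.0708, 95% interval 0.29 to 0.59), with an adjusted p of 0.0521 in edgeR. DESeq2 gave an adjusted p of 5.5e-05 and limma-voom 0.0494 for the same gene. After the GC and length correction the log2 fold change was 0.28, with an unadjusted p of 0.00029 and an adjusted p of 0.148 in edgeR. Without the correction, the log2 fold change stayed between 0.39 and 0.48 when each mouse was left out in turn. Its adjusted p in edgeR ran from 0.00079 to 0.359 over these fits.

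Dnajc21 (ENSMUSG00000044224, chromosome 15 from 10446756 to 10470516, minus strand), which acts in the maturation of the large ribosomal subunit, was at 86.1, 97.3 and 127 CPM in HETStra8 and 133, 136 and 134 CPM in KOStra8 mice. The KOStra8 mice lay within 3 CPM of each other, while HETStra8 mouse 3 stood well above the other HETStra8 mice. For Dnajc21 the log2 fold change was 0.37 (SE 0.119, 95% interval 0.11 to 0.63), with an unadjusted p of 0.0088 and an adjusted p of 0.263 in edgeR. It was 0.24 after the correction (unadjusted p = 0.0178 in edgeR). Without HETStra8 mouse 3 it was 0.56, with an adjusted p of 0.00054 in edgeR, and with the correction as well 0.36, with an adjusted p of 0.0131.

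Dnajc28 was at 40.6, 39.7 and 36.5 CPM in HETStra8 and 42.0, 44.6 and 49.2 CPM in KOStra8 mice. The groups did not overlap, with a log2 fold change of 0.22 (SE 0.0949), an unadjusted p of 0.0374 and an adjusted p of 0.380 in edgeR. Dnajc22 was at 1.59, 0.773 and 1.38 CPM in HETStra8 and 0.744, 0.345 and 0.794 CPM in KOStra8 mice, that is, near the limit of what these libraries count. HETStra8 mouse 2 lay among the KOStra8 mice. Its log2 fold change was −0.97 (SE 0.436, 95% interval −1.91 to −0.04), with an unadjusted p of 0.0428 and an adjusted p of 0.390 in edgeR.

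**Figure D4:**
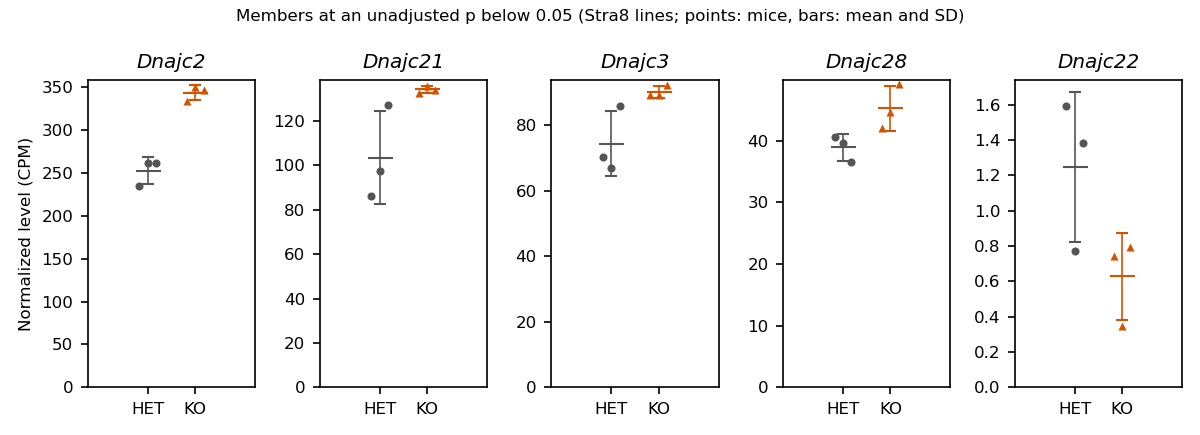
Normalized level in CPM, on axes that start at 0, of the 5 DNAJ genes at an unadjusted p below 0.05; circles are HETStra8 and triangles KOStra8 mice, and bars the mean and SD of 3 mice. Dnajc2 shows a wide gap between the groups, at 234 to 262 and 333 to 350 CPM, while the third HETStra8 mouse comes close to the KOStra8 mice in Dnajc21 and Dnajc3.

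The number of members called depended on HETStra8 mouse 3. Without it, 4 members, Dnajc2, Dnajc21, Dnajc3 and Dnajb7, passed an adjusted p of 0.01 in edgeR, beside 2.01% of all genes tested in that comparison. With the GC and length correction as well, a setting chosen once values had been seen, 0 members passed, beside 0.643% of all genes. At an unadjusted p below 0.05 without that mouse, 8 members were higher, beside 11.0% of all genes, and 2 were lower, beside 8.81%. With the correction on top of that, 5 were higher, beside 6.64%, and 4 were lower, beside 5.77%. Of the 7 spermatocyte markers, 3 passed the adjusted p of 0.01 without that mouse too, Sycp3 (0.00062), Mybl1 (0.00081) and Hormad1 (0.0074), and the part of this in the members' values was not tested. The log2 CPM of HETStra8 mice 1 and 3 differed with an SD of 0.355 over genes, the largest of the 6 pairs within a group, which otherwise lay between 0.235 and 0.284. For HETStra8 mice 1 and 2 the SD was 0.284 and for mice 2 and 3 it was 0.269, so these values do not single out mouse 3.

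The cytosolic co-chaperones of HSC70 showed no difference past the test. Dnajb1 was at 426, 390 and 336 CPM in HETStra8 and 327, 343 and 349 CPM in KOStra8 mice, with a spread among the HETStra8 mice that reached down into the KOStra8 values. Its log2 fold change was −0.18 (95% interval −0.36 to 0.0016, adjusted p = 0.410 in edgeR) and −0.06 after the correction, and −0.25 without HETStra8 mouse 3 (adjusted p = 0.0435 in edgeR). Dnaja4 was at 275, 280 and 291 CPM in HETStra8 and 266, 261 and 256 CPM in KOStra8 mice. Its groups did not overlap, with a log2 fold change of −0.11 (adjusted p = 0.519 in edgeR), and 44.1% of its exon bases are shared with Wdr61 on the opposite strand, which had 16.3 to 18.6 CPM. Dnajb6, a suppressor of aggregation, and Dnaja2 had log2 fold changes of 0.02 and 0.08, and their groups overlapped. Dnaja1 was at 154, 171 and 182 CPM in HETStra8 and 187, 185 and 195 CPM in KOStra8 mice, without overlap, a log2 fold change of 0.16 (adjusted p = 0.417 in edgeR) that was −0.04 after the correction. Dnajb4 had a log2 fold change of 0.18, which was 0.01 after the correction and 0.28 without HETStra8 mouse 3, with an adjusted p of 0.0470 in edgeR. Dnajb2 was at −0.12 and Dnajb5 at −0.06, neither past an adjusted p of 0.01.

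Of the members that sit in the ER membrane, Dnajb12 and Dnajb14 turn their J domains to the cytosol and assist ERAD there with HSC70. Dnajb12 was at 55.4, 57.5 and 51.0 CPM in HETStra8 and 53.6, 55.9 and 48.5 CPM in KOStra8 mice, and Dnajb14 at 179, 193 and 195 CPM and 183, 198 and 199 CPM. Both pairs of groups overlapped. Their log2 fold changes were −0.05 and 0.03, with 95% intervals of −0.25 to 0.14 and −0.12 to 0.19. After the correction Dnajb14 was at −0.18, with an unadjusted p of 0.0256 in edgeR. Dnajc14 and Dnajc16, further ER membrane members, were lower in every KOStra8 than in every HETStra8 mouse, both by a log2 fold change of −0.14, and edgeR's adjusted p was 0.528 for the first and 0.541 for the second. Dnajc14 was at 44.2, 45.1 and 40.1 CPM in HETStra8 and 38.7, 38.3 and 39.9 CPM in KOStra8 mice, and 1114 of its exon bases are shared with Ormdl2 on the opposite strand. Dnajc16 was at 39.2, 39.4 and 41.7 CPM and 36.9, 35.7 and 36.6 CPM. Dnajc18 had a log2 fold change of −0.03.

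Among members with roles in mitochondria, Dnaja3, Dnajc11, Dnajc15, Dnajc19 and Dnajc30 had log2 fold changes from −0.11 to 0.06. None of these named genes was at an unadjusted p below 0.05 in edgeR. The list is not complete and was chosen once values had been seen, so it gives no result for mitochondrial members as a group. Dnajc19 belongs to the motor that pulls proteins through the inner membrane. Members with roles in the nucleus or in splicing, Dnajc8, Dnajc9 and Dnajc17, had log2 fold changes of −0.03, −0.01 and 0.14. Dnajc9, a co-chaperone of histones, was at 75.97, 67.8 and 87.8 CPM in HETStra8 and 78.3, 82.2 and 69.2 CPM in KOStra8 mice. Its groups overlapped widely.

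In vesicle traffic, Dnajc5, the widely expressed cysteine string protein, had a log2 fold change of −0.14, and Dnajc13, which sorts endosomal cargo, one of 0.16. Dnajc6 had a log2 fold change of −0.39 (SE 0.288), with KOStra8 mice at 1.26 to 1.66 CPM below HETStra8 mice at 1.72 to 1.96 CPM. Dnajc25 was uneven within both groups, at 6.49, 6.30 and 14.1 CPM in HETStra8 and 12.4, 6.63 and 7.998 CPM in KOStra8 mice. One mouse of each group had about 12 to 14 CPM and the log2 fold change was 0.01 with an SE of 0.390. Of the remaining members, Dnajc4, Dnajc7, Dnajc12, Dnajc24 and Dnajc27 lay between −0.08 and 0.14 on the log2 scale. Over the 34 other members the median log2 fold change was −0.03, with 14 above 0.

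Counted by mice alone, 5 members lay higher in every KOStra8 than in every HETStra8 mouse, beside 9.33% of all genes. They were Dnajc2, Dnajc21, Dnajc3, Dnajc28 and Dnaja1. Another 5 lay lower in every KOStra8 mouse, beside 8.43% of all genes, and these were Dnaja4, Dnajc14, Dnajc16, Dnajb5 and Dnajc6.

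The fold changes of the members followed the GC content of their transcripts. Across the 45 genes Spearman's rho between GC content and log2 fold change was −0.69, and −0.46 across 21457 genes tested, as a description, since genes share the same 6 libraries. Of 21 members under the median GC content of 47.3%, 18 had a log2 fold change above 0, with a median of 0.09. Of 22 members over it, 3 were above 0, with a median of −0.10. After offsets for GC content and transcript length, rho was 0.13, and 10 of the 21 and 12 of the 22 were above 0, with medians of −0.03 and 0.01. At an unadjusted p below 0.05, 2 members, Dnajc2 and Dnajc21, were then higher, beside 4.07% of all genes, and 1, Dnajb14, was lower, beside 3.51%. The correction changed the sign of 17 of the 45 estimates, while Dnajc2, Dnajc21, Dnajc3 and Dnajc28 stayed above 0. The offsets were fitted to these same libraries without regard to genotype, so the loss of the slope was built in. A difference between the genotypes that follows GC content or length would be taken out as well.

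**Figure D5:**
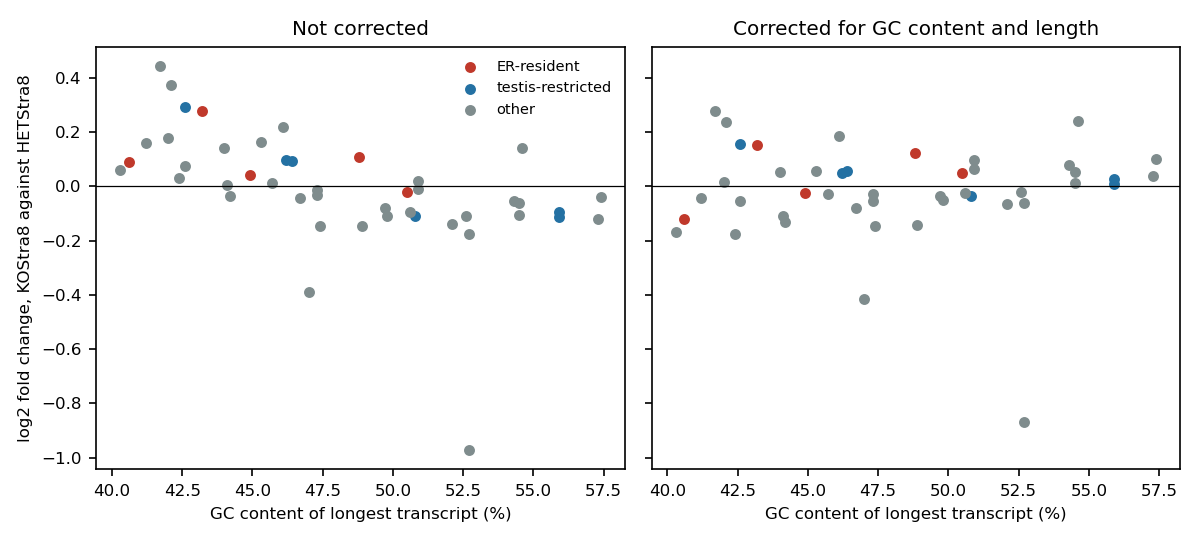
Log2 fold change of the 45 DNAJ genes in KOStra8 against HETStra8 testes plotted against the GC content of their longest transcript in percent, without (left) and with (right) offsets for GC content and transcript length; each point is a gene. The downward slope on the left (rho −0.69) is not seen on the right (rho 0.13). The offsets were fitted to take out such a slope.

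The partners of J proteins were taken as a list of 15 HSP70 and HSP110 genes, 9 nucleotide exchange factors, 6 cofactors and 4 further J proteins without a DNAJ symbol. All 34 were tested and 0 passed an adjusted p of 0.01 in edgeR, while at an unadjusted p below 0.05, 5 were higher, beside 7.13% of all genes, and 5 were lower, beside 5.12%. The list's log2 fold changes had a median of −0.03. Hspa5, which encodes BiP, was at 536, 544 and 552 CPM in HETStra8 and 591, 617 and 598 CPM in KOStra8 mice. Its groups did not overlap, and the estimate was 0.15 on the log2 scale (SE 0.0617, edgeR's adjusted p = 0.367) and 0.10 after the correction. Sil1, the exchange factor of BiP, was at 157, 139 and 127 CPM in HETStra8 and 114, 134 and 113 CPM in KOStra8 mice, with a log2 fold change of −0.23 (adjusted p = 0.363 in edgeR) and −0.10 after the correction. Sec63, the J protein of the ER translocon, had a log2 fold change of 0.17, and 0.04 after the correction.

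The HSP110-type genes Hspa4 and Hspa4l both had a log2 fold change of 0.20, which was 0.17 and −0.11 after the correction. Lower at an unadjusted p below 0.05 were also Hspa1l, the HSP70 of spermatids, with a log2 fold change of −0.15, Bag3 with −0.22 and Hspbp1 with −0.23. After the correction these were −0.03, −0.07 and −0.08, and none of the 3 was at an unadjusted p below 0.05. The stress-inducible Hspa1b was at 2.54, 2.79 and 6.84 CPM in HETStra8 and 2.66, 2.21 and 1.89 CPM in KOStra8 mice, so that HETStra8 mouse 3 alone stood apart. Its log2 fold change was −0.85 and ranged from −1.10 to −0.23 when single mice were left out, and its adjusted p in edgeR was 0.718 without HETStra8 mouse 3.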

How the data were processed

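Each of 6 testes, 1 per mouse, gave 1 directional poly(A)+ library. The authors deposited raw counts, a whole number of reads for every one of 55536 Ensembl identifiers. The submitters' processing notes name STAR 2.7.1a, featureCounts 1.6.0 and the builds mm10 and GRCm38, and the strand setting of the counting is not given in the sources used here. All identifiers matched GENCODE M21.

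Groups were taken from the sample labels. The main test was run with edgeR 4.0.16 under R 4.3.3 (filterByExpr, TMM, robust quasi-likelihood fit, two-sided F test, Benjamini-Hochberg adjustment over 21465 genes), with genotype as the only term. The common biological coefficient of variation was 0.16. The members, their subgroups and the lists were chosen with earlier results of these data known. Named were the ER-resident and testis-restricted members, and among the others the 5 highest per kb, those at an unadjusted p below 0.05 and the 3 largest and 3 smallest fold changes, with Sel1l and the partners at an unadjusted p below 0.05; members named beyond this were chosen after their values were seen. The result for 1 gene under this rule is not reported here.

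Alternatives were DESeq2 1.42.0, limma-voom (limma 3.58.1), DESeq2's size factors, library totals, no filter, at least 10 counts in every sample, an adjusted p of 0.05, the mouse number as a block, leaving out each mouse, and offsets for GC content and transcript length from a loess curve per library (span 0.3, genes above a log2 CPM of 2). On counts simulated from these libraries, edgeR found 200 of 200 genes that had been given a log2 change of 1.5, among 21154, and called 3 unchanged genes. The log2 fold changes of the DNAJ genes lay between −0.97 and 0.44, and how many genes edgeR finds at such sizes was not tested.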

Additional observations from a re-analysis of the deposited data

How the results depend on the processing

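Depth limits the lowest members, with a standard error of 0.436 for Dnajc22 and 0.288 for Dnajc6 on the log2 scale, against a median of 0.0877 over the 45 members.

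The count of members past an adjusted p of 0.01 was 2 without a filter on low counts (Dnajc2 and Dnajc21), 1 in DESeq2 and 0 to 4 with each mouse left out, the 4 without HETStra8 mouse 3. Members higher at an unadjusted p below 0.05 numbered 7 without a filter, 2 with GC and length offsets, and 2 to 8 with each mouse left out. Members lower numbered 2 without a filter, 0 in DESeq2, 0 in limma-voom, 4 with the offsets and without HETStra8 mouse 3, and 0 to 2 with each mouse left out. With the offsets and without HETStra8 mouse 3, the median log2 fold change was 0.01665 for all members and −0.008293 for the others, whose median lay between −0.0576 and −0.01135 with each mouse left out. The cause of these shifts was not tested. Shares of all genes were taken in the main fit, with the offsets, without HETStra8 mouse 3 and with both. For the other settings no such share was taken, so their counts of members have no background.

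What the mouse numbers mean is not stated in the labels. Deviations from the group mean correlated at −0.0726, −0.119 and 0.177 for same-numbered mice over 13124 genes. For mice with different numbers they lay between −0.192 and 0.25. With 3 mice per group these values cannot show whether the mice were paired. With the replicate number as a block, 0 members passed the adjusted p, while an unadjusted p below 0.05 was reached by 5 higher members and by 1 lower member. The block together with the offsets gave 2 higher and 2 lower.

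Of 720 comparisons of a member under an alternative, 641 kept sign and side of the threshold, 7 were newly past it and 72 changed sign. In 21 members the sign held under every alternative run. The log2 fold changes that changed sign with the offsets were Dnaja1 −0.044, Dnaja2 −0.055, Dnajb2 0.037, Dnajb3 0.0098, Dnajb5 0.053, Dnajb8 0.028, Dnajb9 −0.12, Dnajb11 0.048, Dnajb12 0.080, Dnajb14 −0.18, Dnajc4 0.099, Dnajc7 0.062, Dnajc10 −0.025, Dnajc15 −0.11, Dnajc19 −0.17, Dnajc25 −0.030 and Dnajc30 0.010. With the replicate block and the offsets they were Dnaja1 −0.044, Dnaja2 −0.055, Dnajb2 0.037, Dnajb3 0.0094, Dnajb5 0.054, Dnajb8 0.028, Dnajb9 −0.12, Dnajb11 0.048, Dnajb12 0.080, Dnajb14 −0.18, Dnajc4 0.096, Dnajc7 0.065, Dnajc10 −0.025, Dnajc15 −0.11, Dnajc19 −0.15 and Dnajc30 0.0060. With the offsets and without HETStra8 mouse 3, a setting chosen once values had been seen, they were Dnaja1 −0.044, Dnaja2 −0.086, Dnaja3 0.011, Dnajb2 0.025, Dnajb3 0.017, Dnajb5 0.083, Dnajb8 0.042, Dnajb9 −0.16, Dnajb11 0.066, Dnajb12 0.068, Dnajb14 −0.20, Dnajc4 0.12, Dnajc7 0.13, Dnajc9 0.058, Dnajc10 −0.074, Dnajc12 −0.063, Dnajc15 −0.14, Dnajc19 −0.28 and Dnajc30 0.021. With library totals, Dnajc7 was 0.0017. Leaving out single mice, the estimates that changed sign ranged as follows, Dnajb6 −0.012 to 0.048, Dnajb12 −0.093 to 0.0025, Dnajb14 −0.0061 to 0.077, Dnajc7 −0.034 to 0.043, Dnajc9 −0.098 to 0.10, Dnajc12 −0.025 to 0.35, Dnajc15 −0.028 to 0.040, Dnajc17 −0.17 to 0.31, Dnajc18 −0.10 to 0.029, Dnajc19 −0.00030 to 0.17, Dnajc24 −0.13 to 0.044 and Dnajc25 −0.29 to 0.51.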
